A study of Mus musculus with 6 samples.

Results

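The genes described here are 10 enzymes and core subunits of DNA methylation and Polycomb repression in mouse MLL-AF9 leukemia cells, namely Dnmt1, Uhrf1, Dnmt3a, Dnmt3b, Tet2, Tet3, Ezh2, Ezh1, Eed and Suz12. They were chosen by gene name as known components of both systems and not by a measured value, although earlier results of these data were known by then. All 10 were found among the 26082 distinct gene names of the expression table, each on a row of its own.

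Expression was measured by RNA-Seq in leukemia cells taken from the bone marrow of C57BL/6J mice and isolated with a cell sorter. The transduced gene was MLL-AF9 in both groups, 3 samples came from mice given Vehicle Control, and 3 samples came from mice given DS-5272 by mouth at 80 mg/kg, with cells collected 24 hours later. DS-5272 inhibits MDM2 and thereby activates p53. In the study's model the fusion gene is delivered by retrovirus to c-Kit+ bone marrow progenitors and the resulting leukemia is passed from mouse to mouse, so all samples trace back to transduced cells that had been transplanted repeatedly. The labels number the samples of each group from 1 to 3 without stating that each came from its own mouse, and p-values therefore measure the spread between these samples, which may be technical. Levels are FPKM, fragment numbers scaled to transcript length and library size, so that levels of different genes can be set side by side.

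DNA methylation is copied onto the new strand after replication by DNMT1, which UHRF1 brings to hemimethylated DNA, while DNMT3A and DNMT3B place methyl groups on previously unmethylated sites and the TET enzymes oxidise them as a step toward removal. Polycomb repressive complex PRC2 methylates histone H3 at H3K27 through EZH2 or its paralogue EZH1, and needs EED and SUZ12 for activity. Both systems are closely tied to myeloid leukemia, where DNMT3A, TET2 and EZH2 are recurrent sites of mutation in patients and where MLL-AF9 cells depend on PRC2.

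After DS-5272 Dnmt3a and Dnmt3b moved apart, as did Ezh1 and Ezh2. Dnmt1, Uhrf1, Dnmt3b, Ezh2 and Suz12 were lower, Dnmt3a and Ezh1 were higher, and Tet2, Tet3 and Eed did not pass the threshold of an adjusted p of 0.05 in a limma fit across all genes. All 10 passed the filter of a mean of 1 FPKM. The 5 of 10 called lower stand beside 22.0% of the 11130 genes tested, and the 2 of 10 called higher stand beside 24.2%. In 7 of 10 the vehicle and DS-5272 samples did not overlap, as was also the case in 61.8% of all genes tested, so the absence of overlap by itself does not set the 10 apart. The median log2 fold change was −0.41 over the 10 genes and 0.04 over all genes tested, a set in which 2451 genes were called lower and 2697 higher. Those 2 counts were 1389 and 1623 without vehicle replicate 2, and 1492 and 1799 without vehicle replicate 3, and 3555 and 1713 with FPKM rescaled to a common total, so which direction held more calls depended on the scaling.

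**Figure D1:**
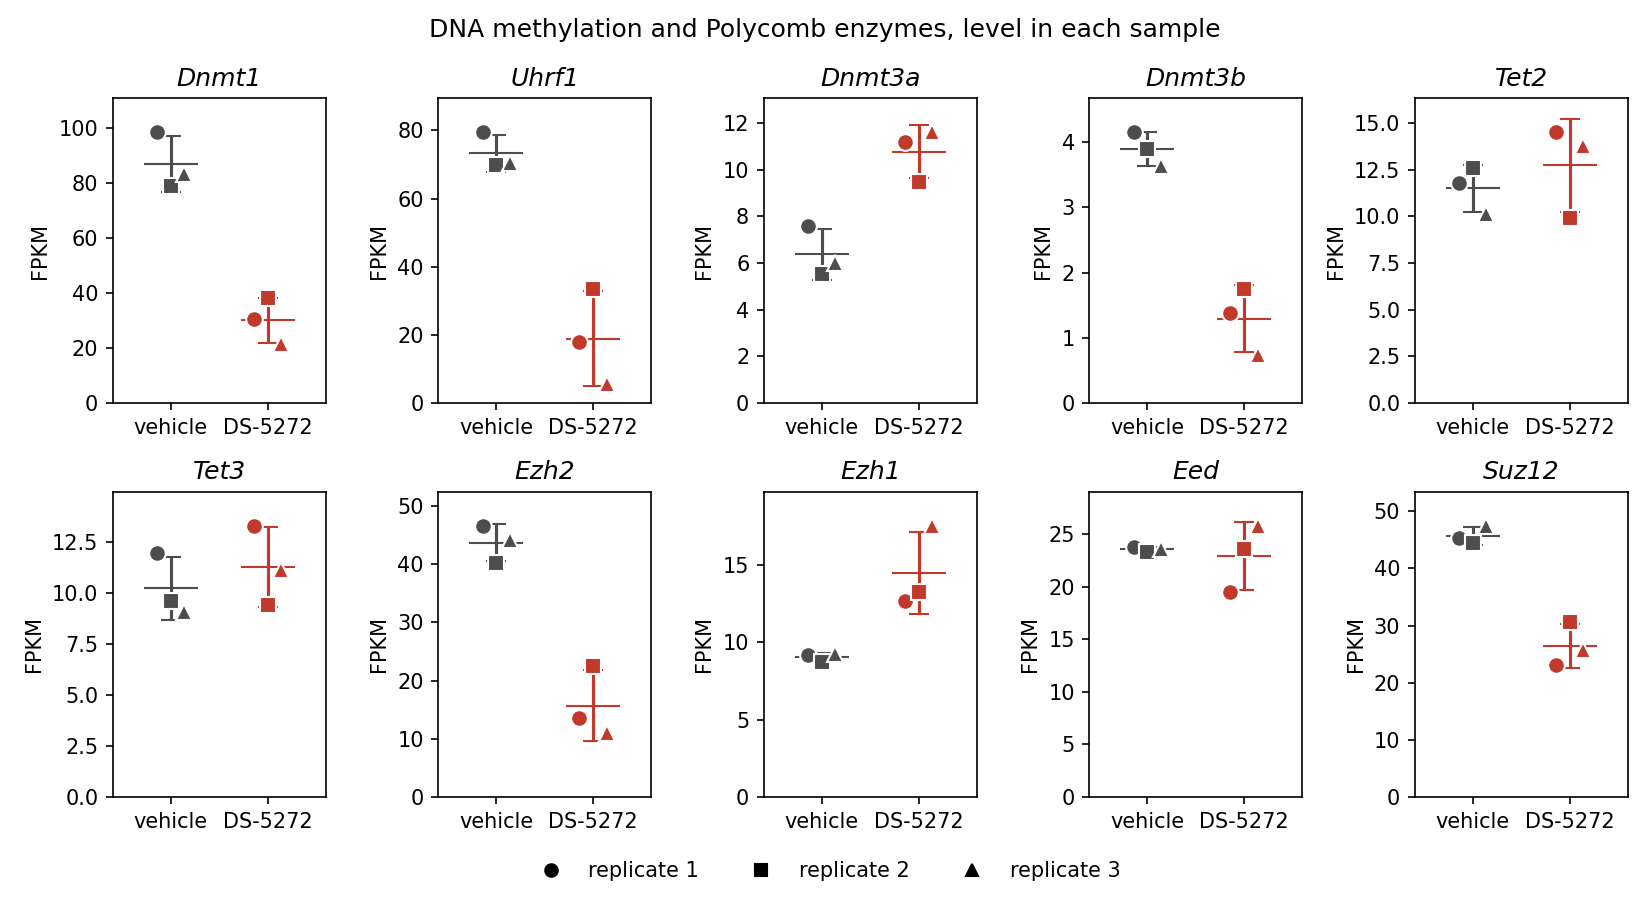
Level of each of the 10 genes in FPKM on a linear axis starting at 0, with 1 point per sample, the shape giving the replicate number, and the horizontal bar and whiskers giving the mean and SD of 3 samples. Dnmt1, Uhrf1, Dnmt3b, Ezh2 and Suz12 lie lower in every DS-5272 sample than in any vehicle sample, Dnmt3a and Ezh1 lie higher, and Tet2, Tet3 and Eed overlap.

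Because 5 of the genes fell together, their promoters are shown with the letters that E2F factors, the regulators of replication genes, are known to bind. RefSeq promoter windows on GRCm38.p6, running from 250 bases before the start to 50 bases after it, were found for all 10 genes, 15 windows in all. Capitals mark TTTCCCGC, TTTCGCGC, TTTGCCGC or TTTGGCGC on either strand, a set of letters held by 744 of 32851 windows of the same length, or 2.26%. Matches lay in 4 of the 15 windows, those of Dnmt1, Uhrf1, Ezh2 and Suz12, which are 4 of the 5 genes called lower, and in 0 of the other 5 genes. All 4 spellings contain CG. The matching windows held 31 to 41 CG, and those of the 10 genes without a match 2 to 57. Over all windows the median was 7 and the upper quartile 20, so 2.26% is a share over windows mostly poorer in CG. The windows with a match are given first, followed by those of Dnmt3b, which was lower without a match, and of Ezh1, the paralogue of Ezh2 that was higher.
Dnmt1 (chr9:20952574-20952873, minus strand): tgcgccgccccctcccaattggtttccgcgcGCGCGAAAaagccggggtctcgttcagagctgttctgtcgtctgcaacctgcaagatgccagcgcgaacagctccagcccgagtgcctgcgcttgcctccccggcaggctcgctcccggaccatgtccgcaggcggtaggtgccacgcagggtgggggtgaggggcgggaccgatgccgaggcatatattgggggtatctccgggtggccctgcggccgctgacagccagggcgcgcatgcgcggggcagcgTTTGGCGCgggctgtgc
Uhrf1 (chr17:56304063-56304362, plus strand): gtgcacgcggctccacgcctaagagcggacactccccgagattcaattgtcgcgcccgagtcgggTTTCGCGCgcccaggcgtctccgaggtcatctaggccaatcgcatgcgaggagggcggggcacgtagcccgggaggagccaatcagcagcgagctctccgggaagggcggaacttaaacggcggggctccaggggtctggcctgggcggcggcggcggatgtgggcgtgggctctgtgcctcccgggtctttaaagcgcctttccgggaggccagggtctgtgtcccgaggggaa
Ezh2 (chr6:47594981-47595280, minus strand): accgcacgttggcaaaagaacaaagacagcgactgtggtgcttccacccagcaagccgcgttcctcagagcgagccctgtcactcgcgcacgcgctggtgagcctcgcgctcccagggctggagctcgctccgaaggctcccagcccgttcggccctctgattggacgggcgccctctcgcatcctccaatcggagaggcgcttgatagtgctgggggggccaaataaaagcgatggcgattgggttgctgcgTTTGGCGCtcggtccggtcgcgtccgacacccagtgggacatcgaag
Suz12 (chr11:79992856-79993155, plus strand): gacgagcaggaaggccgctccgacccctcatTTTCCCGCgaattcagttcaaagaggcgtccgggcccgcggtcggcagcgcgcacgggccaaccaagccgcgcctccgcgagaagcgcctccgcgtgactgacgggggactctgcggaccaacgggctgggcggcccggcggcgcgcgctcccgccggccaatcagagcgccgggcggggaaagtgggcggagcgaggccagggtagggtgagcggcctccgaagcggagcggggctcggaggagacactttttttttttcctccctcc
Dnmt3b (chr2:153649199-153649498, plus strand): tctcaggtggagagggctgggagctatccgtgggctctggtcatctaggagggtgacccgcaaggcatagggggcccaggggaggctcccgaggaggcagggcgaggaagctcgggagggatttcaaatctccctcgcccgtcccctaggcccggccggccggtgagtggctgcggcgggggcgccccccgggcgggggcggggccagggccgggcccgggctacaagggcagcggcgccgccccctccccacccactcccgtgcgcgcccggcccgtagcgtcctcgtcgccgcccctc
Ezh1 (chr11:101226414-101226713, minus strand): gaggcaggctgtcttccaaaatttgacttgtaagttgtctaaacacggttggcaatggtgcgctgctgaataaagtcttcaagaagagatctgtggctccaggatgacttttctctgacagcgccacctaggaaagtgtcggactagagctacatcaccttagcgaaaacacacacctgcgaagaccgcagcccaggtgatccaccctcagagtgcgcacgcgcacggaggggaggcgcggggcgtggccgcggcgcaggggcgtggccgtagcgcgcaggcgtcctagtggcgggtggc

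In the Ezh2 window the match TTTGGCGC began 3 bases after the start of the gene, and in this Dnmt1 window the same letters began 33 bases after it and a match on the other strand lay at −219. The other Dnmt1 windows, of which RefSeq gives 3 in all, and the other of the 2 Uhrf1 windows held no E2F letters. CCAAT, the letters of NF-Y, were present on either strand in windows of 6 of the 10 genes, in 8 of their 15 windows and in 37.4% of all windows, with 3 copies in the Ezh2 window and up to 5 in a Dnmt1 window. TTTGAA, the core letters of the cell cycle homology region CHR, were present in windows of 4 of the 10 genes, namely Dnmt1, Dnmt3b, Suz12 and Eed, in 4 of the 15 windows and in 17.9% of all windows. The 4 E2F spellings were counted as 1 motif, and overlapping matches were counted separately. The windows of Dnmt3a and Ezh1, both higher after DS-5272, held none of the 3 motifs, and that of Tet2 held none either. The matches describe these windows only, and binding was not measured.

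**Figure D2:**
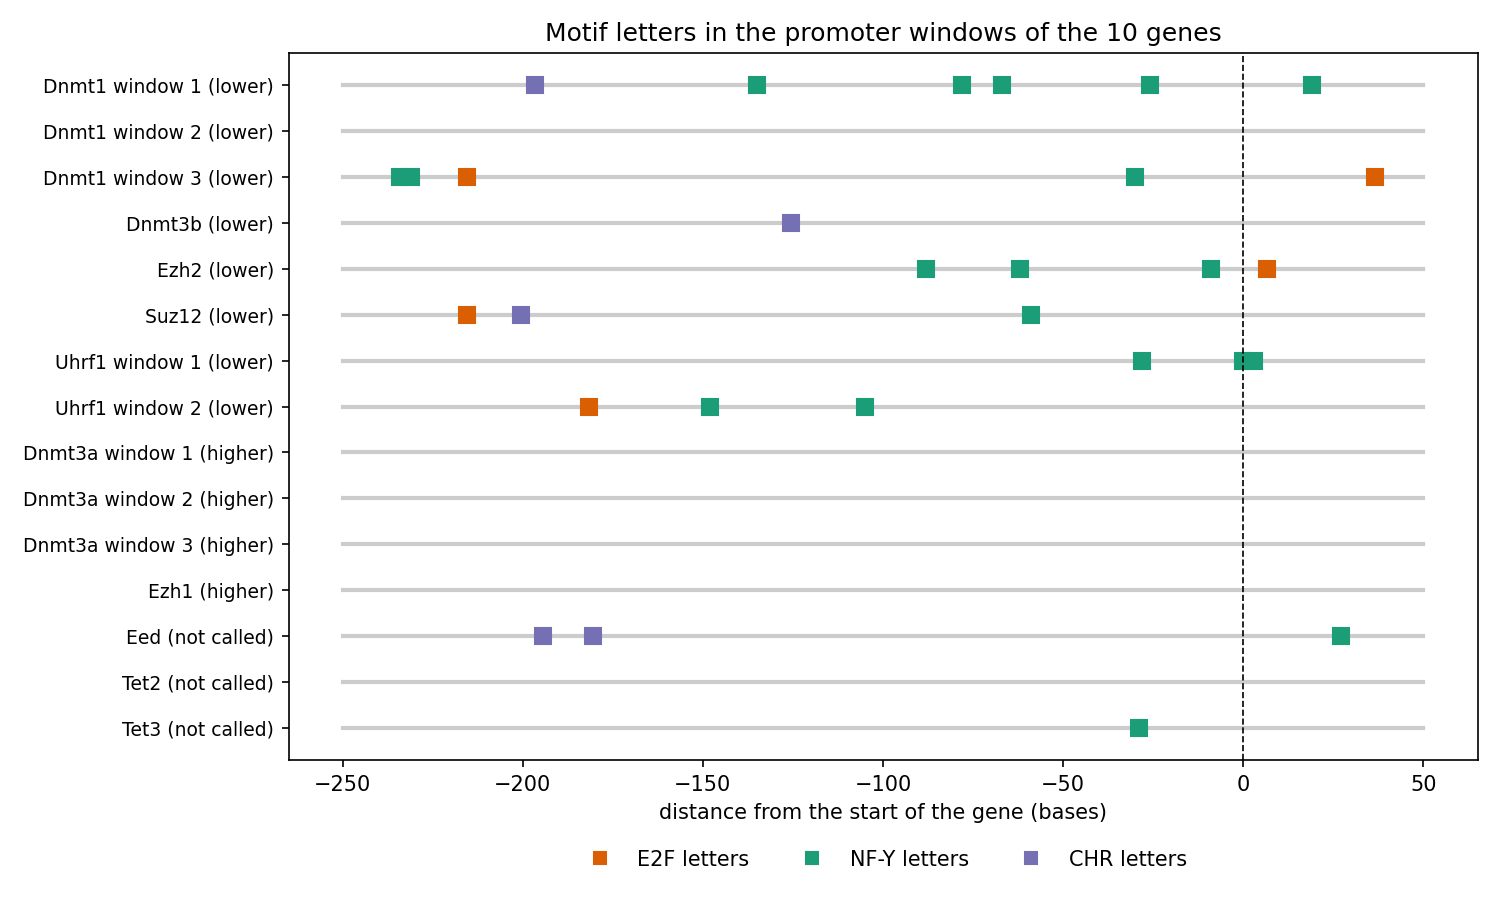
Position of E2F, NF-Y and CHR letters in the 15 promoter windows of the 10 genes, with distance from the start of the gene in bases on the horizontal axis and 1 line per window. E2F letters are seen in 4 windows, all of genes called lower after DS-5272.

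Among the genes that copy DNA methylation, Dnmt1, the maintenance methyltransferase (chr9:20907209-20959888, GRCm38, minus strand), had 98.7, 79.1 and 83.5 FPKM in vehicle replicates 1 to 3 and 30.5, 38.2 and 21.7 FPKM in DS-5272 replicates 1 to 3. The lowest vehicle sample was above the highest DS-5272 sample, and replicate 2 was the least reduced. Dnmt1 fell by 1.53 on the log2 scale (SE 0.21, limma adjusted p = 0.0033), with a 95% interval from −2.02 to −1.04. Uhrf1, the reader that brings DNMT1 to hemimethylated DNA (chr17:56303321-56323486, plus strand), had 79.5, 69.8 and 70.5 FPKM in vehicle samples and 18.0, 33.4 and 5.48 FPKM in DS-5272 samples. The groups were separate, but the DS-5272 samples themselves spread widely, with replicate 3 far below replicate 2. Uhrf1 had the largest fall of the 10 genes, −2.20 on the log2 scale (SE 0.55, limma adjusted p = 0.018). The limma adjusted p was 0.055 without vehicle replicate 1 (log2 −2.14) and 0.055 without vehicle replicate 2 (log2 −2.23), with a range from 0.0077 to 0.055 over all alternatives. The fall was smaller when DS-5272 replicate 3 was left out (log2 −1.54) and larger when DS-5272 replicate 2 was left out (log2 −2.74).

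The de novo methyltransferases moved in opposite directions. Dnmt3a (chr12:3806007-3914443, plus strand) had 7.58, 5.52 and 6.02 FPKM in vehicle samples and 11.2, 9.47 and 11.6 FPKM in DS-5272 samples. Every DS-5272 sample was above every vehicle sample. Dnmt3a rose by 0.68 on the log2 scale (SE 0.14, limma adjusted p = 0.010). With FPKM rescaled to a common total, which moved the median of all genes tested to −0.19, the log2 fold change of Dnmt3a was 0.44 and 0.64 above that median, with a limma adjusted p of 0.096 (range over alternatives 0.0054 to 0.096). Dnmt3b (chr2:153649450-153687730, plus strand) was the least abundant of the 10 genes, with 4.15, 3.90 and 3.63 FPKM in vehicle samples and 1.39, 1.75 and 0.737 FPKM in DS-5272 samples. It was lower in all 3 treated samples than in any vehicle sample. Dnmt3b fell by 1.12 on the log2 scale (SE 0.19, limma adjusted p = 0.0057). Exons of Dnmt3a overlap Dnmt3aos on the opposite strand, and a use of strand in the counting was not stated, so although the library kit keeps strand, reads of the pair may have been counted together.

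The share of Dnmt3a in the summed FPKM of Dnmt3a and Dnmt3b was 64.6, 58.6 and 62.4% in vehicle samples and 89.0, 84.4 and 94.0% in DS-5272 samples. Dnmt1 remained the main methyltransferase transcript in every sample, with 89.4, 89.4 and 89.6% of the summed FPKM of the 3 methyltransferases in vehicle samples and 70.8, 77.3 and 63.7% in DS-5272 samples. The summed level itself was 110.4, 88.5 and 93.1 FPKM in vehicle samples and 43.1, 49.4 and 34.0 FPKM in DS-5272 samples. None of these groups overlapped, and the exact permutation p was 0.1 for each, the smallest that 3 samples against 3 allow.

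The TET dioxygenases, which act against the methyltransferases, showed no such shift. Tet2 (chr3:133463679-133545139, minus strand) had 11.8, 12.6 and 10.1 FPKM in vehicle samples and 14.5, 9.90 and 13.8 FPKM in DS-5272 samples. DS-5272 replicate 2 lay below all vehicle samples while replicates 1 and 3 lay above them, so the groups overlapped. The log2 fold change of Tet2 was 0.12 with a 95% interval from −0.26 to 0.51 (limma adjusted p = 0.55). Tet3 (chr6:83362373-83459084, minus strand) had 11.99, 9.63 and 9.09 FPKM in vehicle samples and 13.3, 9.40 and 11.2 FPKM in DS-5272 samples. Its samples also overlapped, with replicate 1 the highest in each group. The log2 fold change of Tet3 was 0.13 with a 95% interval from −0.25 to 0.50 (limma adjusted p = 0.54). Both intervals leave out a change as large as the fall of Dnmt1. Tet1, the remaining TET gene, was under 0.01 FPKM in all vehicle samples and at 0 in all DS-5272 samples, too low to be tested.

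Of the catalytic subunits of PRC2, Ezh2 (chr6:47530139-47595341, minus strand) had 46.6, 40.3 and 44.1 FPKM in vehicle samples and 13.5, 22.5 and 10.9 FPKM in DS-5272 samples. Every treated sample was below every vehicle sample, and replicate 2 was again the least reduced. Ezh2 fell by 1.48 on the log2 scale (SE 0.24, limma adjusted p = 0.0052). Ezh1 (chr11:101191115-101226463, minus strand), the paralogue known to predominate in non-dividing cells, had 9.18, 8.73 and 9.24 FPKM in vehicle samples and 12.7, 13.2 and 17.6 FPKM in DS-5272 samples. The vehicle samples lay close together and all below the treated ones, of which replicate 3 was the highest. Ezh1 rose by 0.61 on the log2 scale (SE 0.14, limma adjusted p = 0.013). With FPKM rescaled to a common total its log2 fold change was 0.36 (limma adjusted p = 0.041), which is 0.56 above the median of all genes tested. Without vehicle replicate 2 its log2 fold change was 0.59 with a limma adjusted p of 0.053, and the adjusted p ranged from 0.0091 to 0.053 over all alternatives.

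Ezh1 took a larger share of the catalytic transcripts after treatment. It made up 16.4, 17.8 and 17.3% of the summed FPKM of Ezh1 and Ezh2 in vehicle samples and 48.4, 37.0 and 61.6% in DS-5272 samples. In DS-5272 replicate 3, the sample with the lowest Ezh2 level, Ezh1 was the more abundant of the pair. The summed level of Ezh1 and Ezh2 was nevertheless lower after treatment, with 55.8, 49.0 and 53.4 FPKM in vehicle samples and 26.2, 35.7 and 28.5 FPKM in DS-5272 samples. Neither measure overlapped between groups (exact permutation p = 0.1 for both).

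The non-catalytic core subunits did not follow each other. Suz12, the scaffold of the complex (chr11:79993106-80034123, plus strand), had 45.3, 44.4 and 47.5 FPKM in vehicle samples and 23.1, 30.6 and 25.7 FPKM in DS-5272 samples. The groups were well apart, and Suz12 fell by 0.78 on the log2 scale (SE 0.12, limma adjusted p = 0.0046). Eed, which binds the methylated histone tail (chr7:89954654-89980983, minus strand), had 23.8, 23.3 and 23.6 FPKM in vehicle samples and 19.4, 23.5 and 25.8 FPKM in DS-5272 samples. Its vehicle samples were nearly identical and fell inside the range of the treated ones. The log2 fold change of Eed was −0.05 with a 95% interval from −0.33 to 0.24 (limma adjusted p = 0.77). With FPKM rescaled to a common total its log2 fold change was −0.30, which is 0.11 below the median of all genes tested, and the limma adjusted p was 0.044 (range over alternatives 0.044 to 0.85). Exons of Ezh2, Eed, Suz12 and Tet2 also overlap genes on the opposite strand, with the same limit as for Dnmt3a, whereas Dnmt1, Uhrf1, Dnmt3b, Tet3 and Ezh1 have no such overlap.

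In vehicle samples the levels ran from Dnmt1 (87.1 ± 10.3 FPKM, mean ± SD, n = 3) and Uhrf1 (73.3 ± 5.41) through Suz12 (45.7 ± 1.59), Ezh2 (43.7 ± 3.20) and Eed (23.6 ± 0.231) to Tet2 (11.5 ± 1.24), Tet3 (10.2 ± 1.54), Ezh1 (9.05 ± 0.276), Dnmt3a (6.37 ± 1.08) and Dnmt3b (3.89 ± 0.264). Neighbours whose ranges met were Dnmt1 and Uhrf1, Suz12 and Ezh2, Tet2 and Tet3, and Tet3 and Ezh1. After DS-5272 the order was Dnmt1 (30.1 ± 8.26 FPKM), Suz12 (26.4 ± 3.81), Eed (22.9 ± 3.21), Uhrf1 (18.96 ± 13.98), Ezh2 (15.7 ± 6.08), Ezh1 (14.5 ± 2.67), Tet2 (12.7 ± 2.48), Tet3 (11.3 ± 1.96), Dnmt3a (10.8 ± 1.14) and Dnmt3b (1.29 ± 0.514). In that group only Dnmt3b stood apart from its neighbour, and all other neighbours overlapped. Ezh2, above Eed in every vehicle sample, was below Eed in every DS-5272 sample, and Uhrf1, far above Eed in vehicle samples, was below it in DS-5272 replicates 1 and 3.

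Ratios of genes within a sample do not depend on how that sample was scaled, and 8 of the 11 ratios examined did not overlap between groups. Ratios of other genes were not examined for comparison, and 61.8% of single genes did not overlap either. Ezh2 to Ezh1 was 5.08, 4.61 and 4.78 in vehicle samples and 1.06, 1.70 and 0.624 in DS-5272 samples. Relative to its core partners, Ezh2 went from 1.96, 1.73 and 1.87 to 0.694, 0.957 and 0.425 times Eed. Ezh2 to Suz12 went from 1.03, 0.907 and 0.930 to 0.585, 0.737 and 0.427, so that Ezh2 was reduced further than either core partner in each treated sample. Eed to Suz12 was 0.525, 0.525 and 0.496 in vehicle samples and 0.843, 0.770 and 1.005 in DS-5272 samples. Eed was thus well below Suz12 in vehicle samples and level with it in DS-5272 replicate 3. Dnmt1 to Dnmt3a went from 13.01, 14.3 and 13.9 to 2.72, 4.03 and 1.86, and Dnmt3b to Dnmt3a from 0.548, 0.706 and 0.602 to 0.124, 0.185 and 0.0634. With 1 FPKM added to both genes the log2 difference of the latter ratio between groups went from −2.44 to −1.80. Dnmt1 to Tet2 was 8.38, 6.28 and 8.23 in vehicle samples and 2.102, 3.86 and 1.57 in DS-5272 samples.

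The 3 ratios that overlapped were Dnmt1 to Uhrf1, Tet2 to Tet3, and Dnmt1 to Pcna. Dnmt1 to Uhrf1 was 1.24, 1.13 and 1.18 in vehicle samples and 1.70, 1.14 and 3.95 in DS-5272 samples, with replicate 2 at the vehicle level and replicate 3 far above it. Tet2 to Tet3 stayed between 0.982 and 1.31 in all 6 samples. Dnmt1 to Pcna, the sliding clamp of replication, was 0.393, 0.306 and 0.322 in vehicle samples and 0.325, 0.224 and 0.233 in DS-5272 samples. Ezh2 to Pcna was slightly lower after treatment, at 0.186, 0.156 and 0.170 against 0.144, 0.132 and 0.118. For the 8 ratios without overlap the exact permutation p was 0.1, the smallest possible here, and 0.138 after adjustment over the 11 ratios, so none can pass 0.05 in this design.

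**Figure D3:**
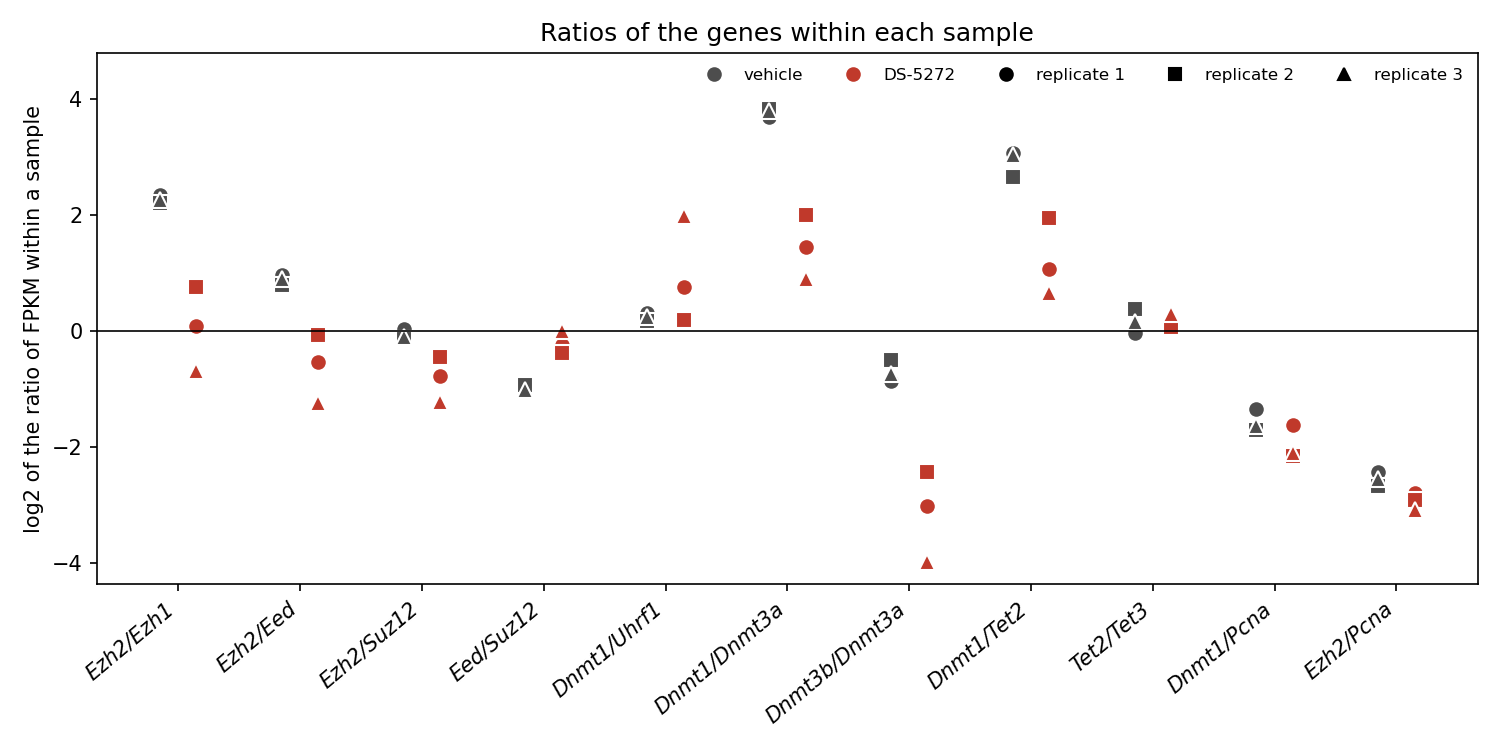
Log2 of the FPKM ratio of the named genes within each sample, with vehicle in grey, DS-5272 in red and the replicate number given by shape. Vehicle samples cluster tightly in most ratios, while the DS-5272 samples spread, with replicate 2 nearest to vehicle in Ezh2 to Ezh1 (1.70 against 4.61 to 5.08).

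As a percent of the vehicle mean, DS-5272 replicates 1 to 3 held 35.1, 43.8 and 24.9% of Dnmt1, and 24.6, 45.6 and 7.47% of Uhrf1. The corresponding values were 30.9, 51.6 and 25.1% for Ezh2, 35.6, 45.0 and 18.9% for Dnmt3b and 50.5, 66.9 and 56.1% for Suz12. All 5 were highest in replicate 2, and 4 of the 5 were lowest in replicate 3, the exception being Suz12. Of 16 S phase genes 15 were tested, and 14 were highest in replicate 2 and 14 lowest in replicate 3. Of all 2451 genes called lower, 66.3% were highest in replicate 2 and 69.3% lowest in replicate 3, so both positions were common among falling genes in general. Of the 15 S phase genes, 14 were called lower and 0 higher, with a median log2 fold change of −1.95, and these 14 had medians of 26.3, 47.0 and 10.6% of the vehicle mean. The largest falls belonged to Mcm5 (log2 −2.28, limma adjusted p = 0.013) and Mcm2 (log2 −2.25, limma adjusted p = 0.012), subunits of the replicative helicase, and to Mki67, the marker of dividing cells. When DS-5272 replicate 3 was left out, Mcm5 was at log2 −1.68 and Mcm2 at log2 −1.65. Mki67 had 108.4, 106.3 and 101.8 FPKM in vehicle samples and 14.7, 58.3 and 11.3 FPKM in DS-5272 samples (log2 −2.24, limma adjusted p = 0.017). Mki67 had a limma adjusted p of 0.050 without vehicle replicate 1 (log2 −2.22) and of 0.055 without vehicle replicate 2 (log2 −2.23), with a range of 0.0018 to 0.055, and the fall was smaller when DS-5272 replicate 3 was left out (log2 −1.80) and larger when DS-5272 replicate 2 was left out (log2 −2.94). Over the 3 samples Uhrf1 thus fell further on the log2 scale than the median of the list, whereas Dnmt1, Ezh2, Dnmt3b and Suz12 fell less. In DS-5272 replicate 2, however, Dnmt1 (43.8%) and Dnmt3b (45.0%) lay below the S phase median of 47.0%. Dnmt3b was at log2 −1.59 with a pseudocount of 0.1, and none of these differences was tested. The S phase gene outside this pattern was Pole, chosen here after its values were seen, with 18.7 to 20.4 FPKM in vehicle samples and 16.8, 20.8 and 40.7 FPKM in DS-5272 samples. In bulk RNA, fewer cells of a type and less RNA per cell cannot be told apart, and the part of a lower number of cycling cells in these falls was not tested.

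**Figure D4:**
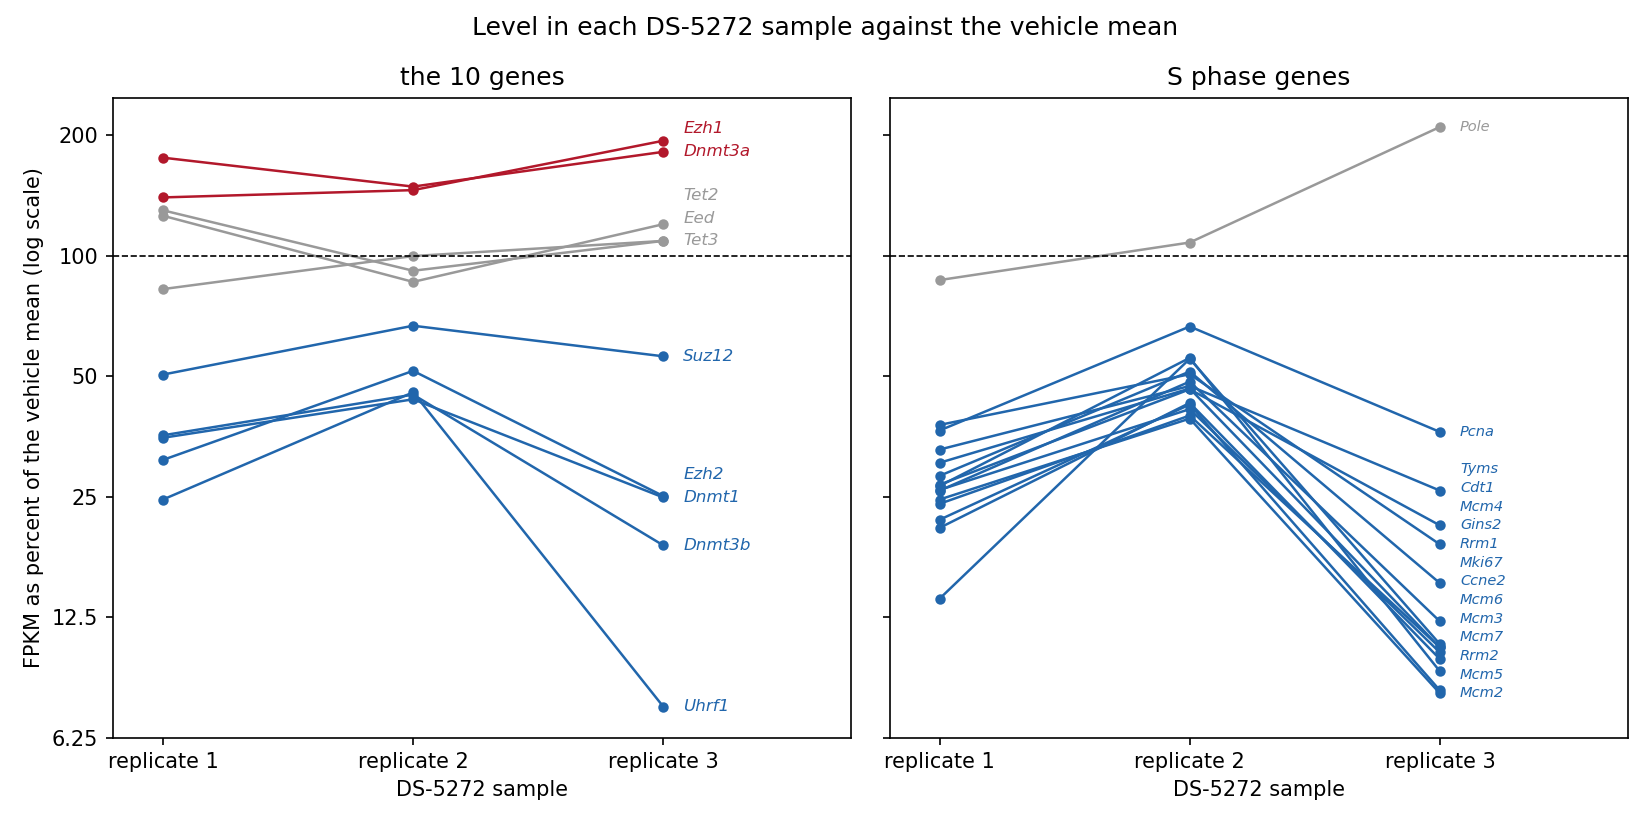
FPKM in each DS-5272 sample as a percent of the vehicle mean on a log scale, for the 10 genes on the left and the tested S phase genes on the right, with lines joining the values of 1 gene and blue, red and grey for lower, higher and not called. Uhrf1 drops to 7.47% in replicate 3, next to Mcm2 at 8.06%, while Suz12 stays at 50.5% or above.

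Over the 6 samples the genes whose log2 levels were most like Dnmt1 were Rbmxl1, Nup93 and Cdk5rap2, with a Pearson r of 0.9994, 0.9992 and 0.9992. Nup93, for example, had 33.5, 28.5 and 28.9 FPKM in vehicle samples and 12.7, 16.1 and 9.54 FPKM in DS-5272 samples. Most like Ezh2 were Tfdp1, the DNA-binding partner of E2F factors, Ptma and Trim27, with r of 0.9995, 0.9994 and 0.9990. Tfdp1 had 181.2, 167.5 and 180.5 FPKM in vehicle samples and 100.2, 127.5 and 90.8 FPKM in DS-5272 samples. Most like Ezh1 were Acadvl, Dock2 and Taok3, with r of 0.9995, 0.9988 and 0.9981. Dock2 had 99.4, 94.4 and 101.4 FPKM in vehicle samples and 129.8, 134.1 and 166.4 FPKM in DS-5272 samples. All these coefficients span both groups, so they reflect the difference between groups as well as the order of samples within each.

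The partner genes of both systems numbered 61, of which 53 had an entry of their own and 48 were tested. Of the 48, 19 were called lower, 6 higher and 23 neither, with a median log2 fold change of −0.18. Over all genes tested 22.0% were called lower and 24.2% higher, and these shares also stand beside the counts of each list below. The count of 6 was 3 without vehicle replicate 2. Among 18 tested DNA methylation partners, 11 were lower and 3 higher, with a median of −0.55. Cdca7 and Hells, which form the remodeler that opens chromatin for maintenance methylation, moved with Uhrf1. Cdca7 had 36.1, 25.4 and 27.9 FPKM in vehicle samples and 6.02, 8.78 and 1.17 FPKM in DS-5272 samples (log2 −2.52, limma adjusted p = 0.010, and log2 −1.88 when DS-5272 replicate 3 was left out). Hells had 35.3, 32.5 and 32.9 FPKM in vehicle samples and 8.33, 13.7 and 2.70 FPKM in DS-5272 samples (log2 −2.12, limma adjusted p = 0.011). In both, replicate 3 was the lowest and replicate 2 the highest treated sample, the order also seen in Uhrf1 and Dnmt1. The base excision enzyme Apex1, which acts after TET and TDG in removing methylated bases, fell by 1.64 on the log2 scale (limma adjusted p = 0.0086). Pcna, the most abundant of these partners in vehicle samples and the clamp that DNMT1 binds at the fork, had 251.1, 258.3 and 259.0 FPKM in vehicle samples and 93.8, 170.7 and 93.0 FPKM in DS-5272 samples. Pcna fell by 1.16 on the log2 scale (limma adjusted p = 0.0097).

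The DNA methylation partners that rose were Idh1, Mbd2 and Dnmt3l. Dnmt3l, the catalytically inactive cofactor of DNMT3A and DNMT3B, had 4.69, 5.28 and 5.87 FPKM in vehicle samples and 8.26, 9.52 and 9.76 FPKM in DS-5272 samples, and rose by 0.70 on the log2 scale (limma adjusted p = 0.0059). Like Dnmt3a, it was higher in every treated sample. Mbd2, a reader of methylated DNA, rose by 0.74 (limma adjusted p = 0.013). Idh1, which makes the cofactor of the TET enzymes in the cytosol, rose by 0.80 (limma adjusted p = 0.013). Idh2, the paralogue of Idh1, had 120.3, 102.0 and 97.9 FPKM in vehicle samples and 60.3, 65.0 and 45.5 FPKM in DS-5272 samples. Idh2 thus went the other way and fell by 0.90 on the log2 scale (limma adjusted p = 0.0063). With FPKM rescaled to a common total Mbd2 was at log2 0.47 (limma adjusted p = 0.0083) and Dnmt3l at log2 0.47 (limma adjusted p = 0.017). The call of Idh1 was lost without vehicle replicate 2 (log2 0.75, adjusted p = 0.053) and with FPKM rescaled to a common total (log2 0.53, adjusted p = 0.064), the limma range over alternatives being 0.0060 to 0.064.

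Among the 6 tested PRC2 partners, 3 were lower and 1 higher, with a median log2 fold change of −0.54. Rbbp4 and Rbbp7 encode the histone-binding subunits. Rbbp4, the most abundant, had 97.8, 91.6 and 92.6 FPKM in vehicle samples and 48.8, 68.2 and 51.6 FPKM in DS-5272 samples, a course close to that of Suz12, and fell by 0.75 on the log2 scale (limma adjusted p = 0.0077). Rbbp7 fell by 1.28 (limma adjusted p = 0.0055). Phf19, an accessory subunit that binds methylated H3K36, had 9.91, 10.3 and 9.72 FPKM in vehicle samples and 2.72, 4.41 and 1.10 FPKM in DS-5272 samples, and fell by 1.66 (limma adjusted p = 0.0081). Jarid2, the accessory subunit of the other PRC2 form, had 29.5, 25.6 and 27.2 FPKM in vehicle samples and 35.9, 38.2 and 40.1 FPKM in DS-5272 samples, and rose by 0.46 (limma adjusted p = 0.011). The accessory subunits Aebp2 (log2 −0.18, limma adjusted p = 0.29) and Mtf2 (log2 −0.33, limma adjusted p = 0.061) were not called. Jarid2 lost its call without vehicle replicate 2 (log2 0.41, adjusted p = 0.054) and with a common total (log2 0.20, adjusted p = 0.23), the limma range being 0.011 to 0.23.

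Kdm6b, which removes the mark that EZH2 places, had 15.3, 27.8 and 26.7 FPKM in vehicle samples and 48.6, 88.9 and 118.9 FPKM in DS-5272 samples. It was higher in every treated sample and rose by 1.79 on the log2 scale (limma adjusted p = 0.0094), the largest rise among the partner genes. In each group replicate 1 was the lowest. Exons of Kdm6b overlap a gene on the opposite strand, with the limit given for Dnmt3a. The same holds for Dnmt3l, Apex1, Rbbp4, Rbbp7, Mtf2, L3mbtl2, Asxl1, Setdb1, Suv39h1, Atf7ip, Pole, Cdkn1c, Mest, Zrsr1, Meis1, Cd3e, Eomes and Vcam1. Exons of Meis1, Itgam, Ehmt1 and Klrb1c overlap a gene on the same strand, which counting by strand would not separate. Kdm6b exceeded Ezh2 in all 3 treated samples and was below it in all 3 vehicle samples. Its paralogue Kdm6a, the other of the 2 demethylases listed, had a log2 fold change of 0.45 (limma adjusted p = 0.083).

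PRC1 is the complex that ubiquitinates histone H2A at Polycomb targets. Of its 19 tested genes 5 were lower, 1 was higher and 13 were not called, with a median log2 fold change of −0.13. Ring1, Bmi1, Cbx6 and Bcor stand only in rows that join several genes and were not tested. The 5 of 19 called lower lie near the share of 22.0% over all genes tested, of which 24.2% were called higher. E2f6 (log2 −0.83, limma adjusted p = 0.019), L3mbtl2 (log2 −0.73, limma adjusted p = 0.0081) and Pcgf3 (log2 −0.56, limma adjusted p = 0.044) had the largest falls. E2f6 and L3mbtl2 belong to the same variant complex. Its subunits Mga (log2 −0.13, limma adjusted p = 0.29) and Pcgf6 (log2 −0.54, limma adjusted p = 0.13) were not called. Mga was lower in every DS-5272 sample than in any vehicle sample, and Pcgf6 overlapped between groups. E2f6 lost its call without vehicle replicate 1 (log2 −0.74, adjusted p = 0.063) or 3 (log2 −0.85, adjusted p = 0.054), in a limma range of 0.011 to 0.063. Pcgf3, whose samples overlapped between groups, lost its call without the filter on low values (log2 −0.56, adjusted p = 0.079) and without vehicle replicate 1 (log2 −0.47), vehicle replicate 2 (log2 −0.53), DS-5272 replicate 2 (log2 −0.44) or DS-5272 replicate 3 (log2 −0.51), in a range of 0.016 to 0.13. Rybp, a subunit of variant PRC1, rose by 0.78 (limma adjusted p = 0.014), and without vehicle replicate 2 its log2 fold change was 0.78 with an adjusted p of 0.051 (range 0.0035 to 0.051). Phc2, the most abundant PRC1 gene, had 30.2, 32.7 and 30.7 FPKM in vehicle samples and 34.8, 36.4 and 42.6 FPKM in DS-5272 samples (limma adjusted p = 0.079). Of the 3 tested genes of the deubiquitinase PR-DUB 0 were called by limma, and 0 had an unadjusted p under 0.05. Asxl1, with the highest mean over all 6 samples, had a log2 fold change of 0.34 (limma adjusted p = 0.10).

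**Figure D5:**
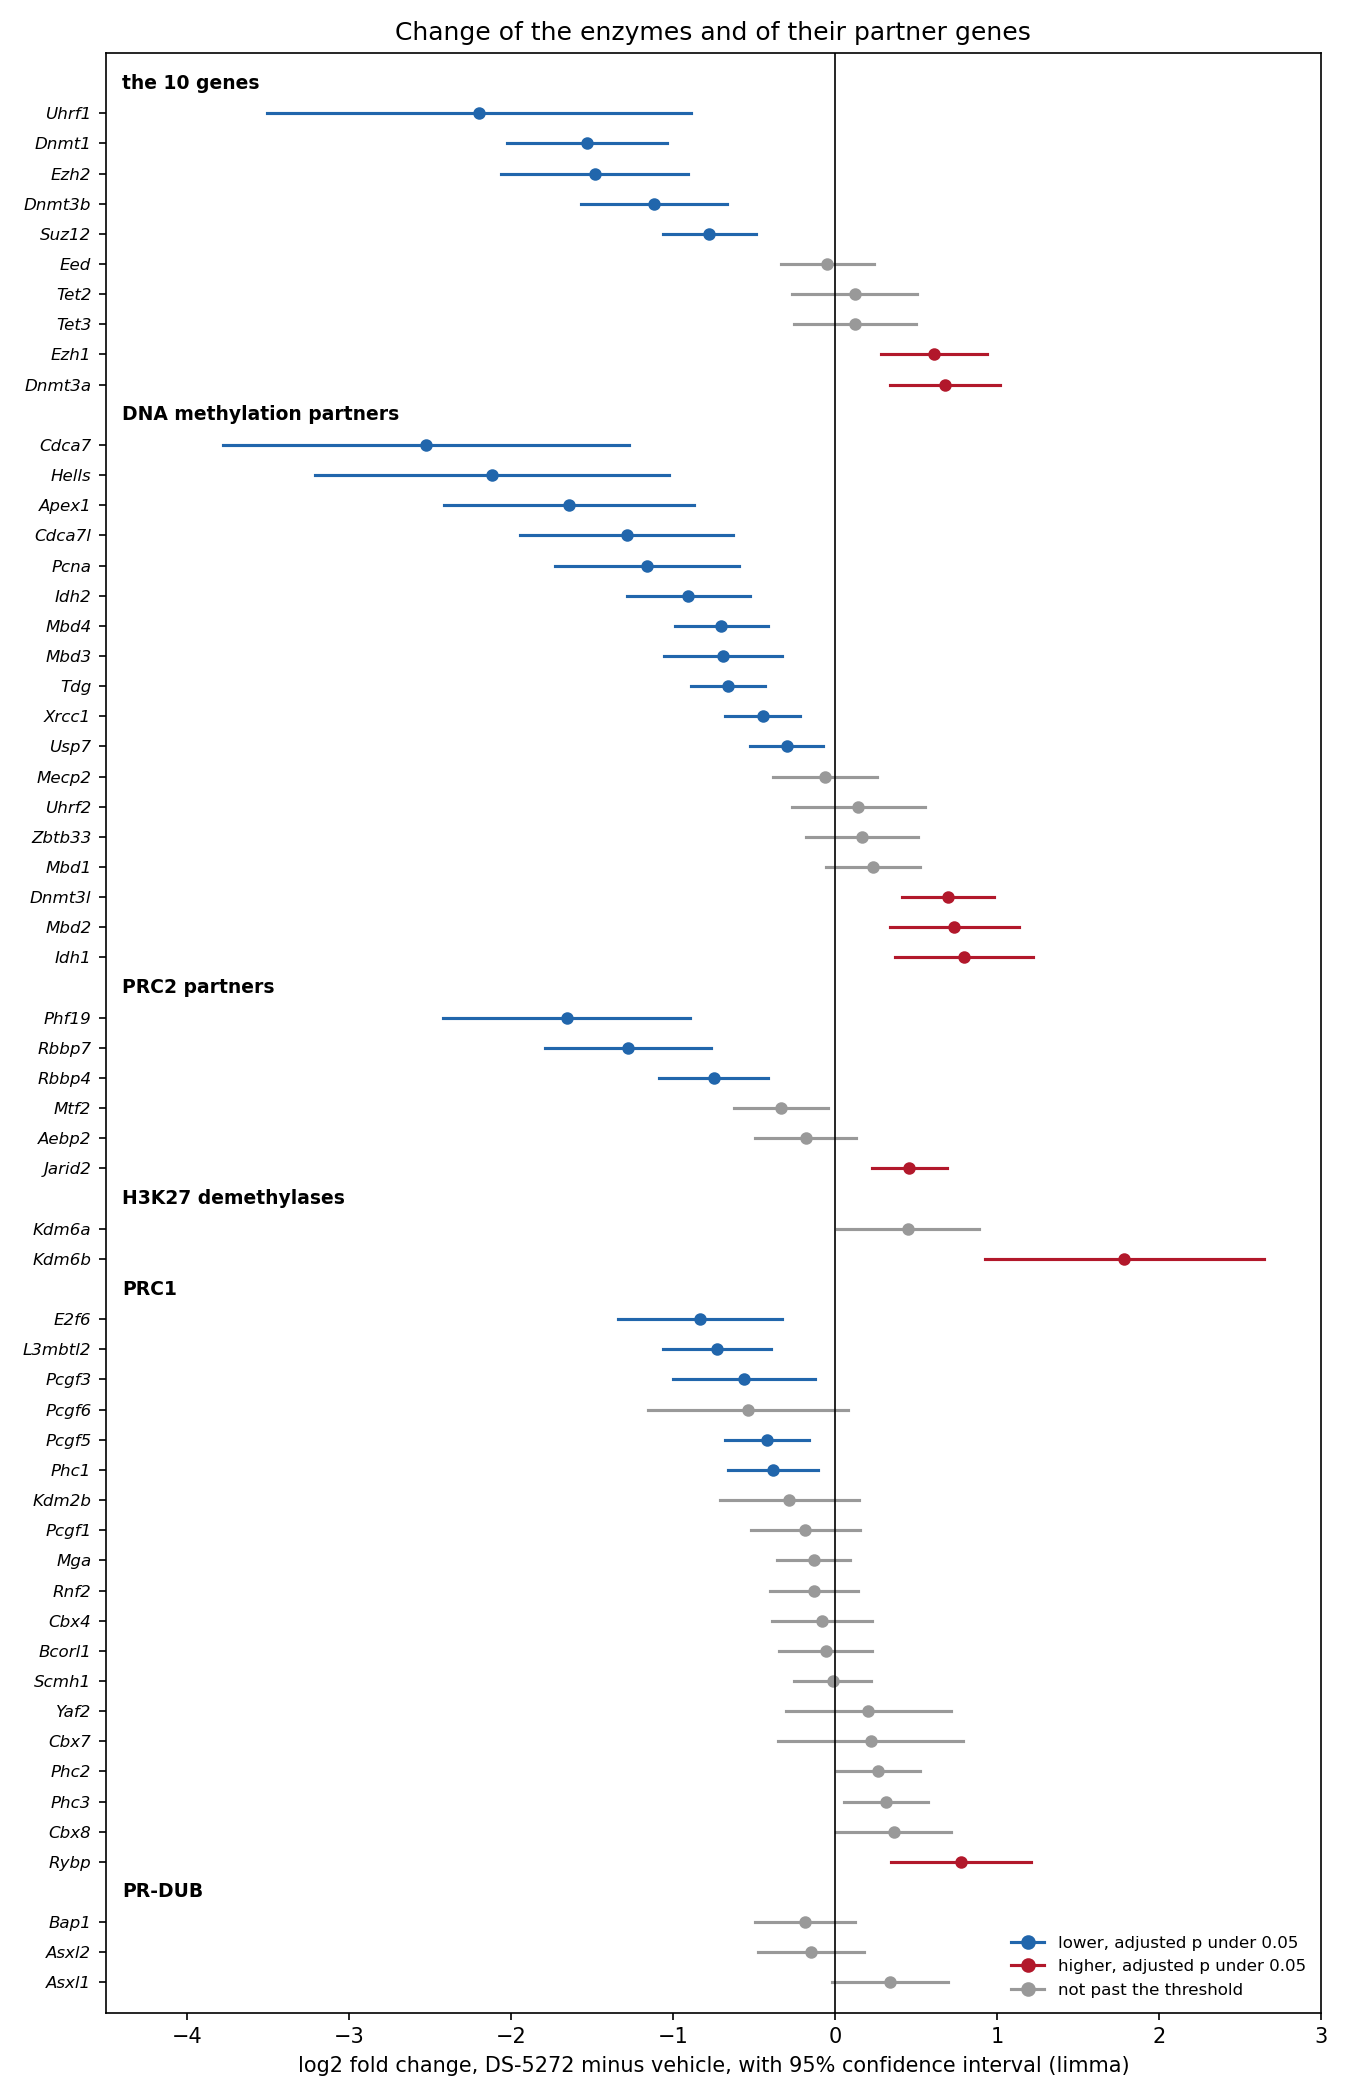
Log2 fold change of DS-5272 minus vehicle with its 95% confidence interval from limma, for the 10 genes and for the tested partner genes by list, in blue or red where the adjusted p was under 0.05. Falls reach −2.52 for Cdca7 and −2.20 for Uhrf1, and the largest rise is 1.79 for Kdm6b, while 13 of the 19 tested PRC1 genes are not called.

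For H3K9 methylation, the other repressive mark, and the HP1 proteins that read it, 6 of 10 tested genes were called lower and 0 higher, with a median log2 fold change of −1.01. The methyltransferases Ehmt1 (log2 −0.24, limma adjusted p = 0.14), Ehmt2 (log2 −0.03, limma adjusted p = 0.82) and Setdb1 (log2 −0.19, limma adjusted p = 0.15) were not called, nor was Atf7ip (log2 0.62, limma adjusted p = 0.071). Trim28, the most abundant, had 114.9, 105.0 and 110.7 FPKM in vehicle samples and 45.6, 60.8 and 33.1 FPKM in DS-5272 samples, with the same order of treated samples as Dnmt1 and Ezh2. It fell by 1.27 on the log2 scale (limma adjusted p = 0.0054). Cbx5, which encodes HP1 alpha, fell by 1.74 (limma adjusted p = 0.0070), and the methyltransferase Suv39h1 fell by 1.42 (limma adjusted p = 0.0059).

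Genes that these systems are known to keep silent were mostly below the filter and could not be tested. Of 16 germline genes silenced by DNA methylation, 15 were under 1 FPKM in all 6 samples and 8 of those at 0 in all. The exception, Ddx4, had 6.90, 4.58 and 4.52 FPKM in vehicle samples and 7.35, 3.25 and 1.58 FPKM in DS-5272 samples. Its groups overlapped, and its log2 fold change was −0.47 (limma adjusted p = 0.37), or −0.91 with an adjusted p of 0.038 without DS-5272 replicate 1 and −0.07 with an adjusted p of 0.88 without DS-5272 replicate 3 (range 0.038 to 0.88). Of 20 Polycomb target genes, 15 were under 1 FPKM in all samples, 11 were at 0 in all, and of the 4 tested 0 were called by limma, with 0 at an unadjusted p under 0.05. DNA methylation and H3K27 methylation themselves were not measured, and a single time point of 24 hours was sampled.

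Of 14 imprinted genes 5 were tested, 2 were lower and 0 higher, with a median log2 fold change of −0.69. Cdkn1c, an inhibitor of cyclin-dependent kinases that is expressed from the maternal copy, had 7.76, 19.5 and 19.4 FPKM in vehicle samples and 2.74, 2.92 and 1.95 FPKM in DS-5272 samples, and fell by 2.13 on the log2 scale (limma adjusted p = 0.0049). Igf2r fell by 1.35 (limma adjusted p = 0.0074). Zrsr1 (log2 0.46, limma adjusted p = 0.052) and Mest (log2 0.29, limma adjusted p = 0.11) were higher in every DS-5272 sample but were not called. Dlk1, the most abundant imprinted gene, had 284, 237 and 188 FPKM in vehicle samples and 243, 133 and 93.1 FPKM in DS-5272 samples. Its groups overlapped, with a log2 fold change of −0.69 and a limma adjusted p of 0.14. In a limma fit with the replicate block the adjusted p was 0.015 for the same −0.69, and leaving out DS-5272 replicate 1 gave −1.06 with an adjusted p of 0.016, whereas leaving out DS-5272 replicate 3 gave −0.37 with an adjusted p of 0.35 (range 0.015 to 0.35).

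Markers of cell state also differed between the groups. Of 11 leukemia progenitor markers 9 were tested, 4 were lower and 2 higher. Their summed level was 2500.1, 2620 and 3139 FPKM in vehicle samples and 1409, 1601 and 1885 FPKM in DS-5272 samples. Elane was the most abundant in vehicle samples, with 1579, 1800 and 2128 FPKM there and 353, 411 and 210 FPKM in DS-5272 samples. Itgam, the most abundant in DS-5272 samples, had 140, 175 and 190 FPKM in vehicle samples and 530, 646 and 1087 FPKM in DS-5272 samples. The lower sums thus rested largely on Elane. Ptprc and Itgam, general leukocyte and myeloid surface markers, were the 2 that were higher. Kit had 45.0, 32.3 and 30.5 FPKM in vehicle samples and 12.1, 9.70 and 4.94 FPKM in DS-5272 samples, whereas Meis1, a gene that MLL-AF9 keeps active, had 66.1, 80.5 and 79.1 FPKM and 69.2, 91.6 and 109.9 FPKM. Of 11 mature granulocyte markers 9 were higher and 0 lower, and their summed level was 417, 1857 and 2500.4 FPKM in vehicle samples and 4942, 12579 and 21115 FPKM in DS-5272 samples. Ly6g, a defining surface marker, had 0.160 to 0.264 FPKM in vehicle samples and 0.580, 3.06 and 3.66 FPKM in DS-5272 samples. Replicate 1 was the lowest for this list in each group, as it was for Kdm6b. The part of this shift in the levels of the 10 genes was not tested.

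Of 8 macrophage markers 7 were tested, and 3 were higher and 0 lower. Their summed level was 60.0, 79.8 and 117 FPKM in vehicle samples and 571, 126 and 159 FPKM in DS-5272 samples, with DS-5272 replicate 1 standing out. Vcam1, with the highest mean, had 36.6, 64.1 and 82.8 FPKM in vehicle samples and 142.9, 74.8 and 85.7 FPKM in DS-5272 samples. Apoe had 16.6, 12.2 and 24.5 FPKM in vehicle samples and 210.9, 18.6 and 34.7 FPKM in DS-5272 samples. Both overlapped between groups and were not called. The 3 called higher were C1qa, C1qb and C1qc. The paper reports higher VCAM-1 after DS-5272 in c-Kit+ cells by mass cytometry. Erythroid markers, 2 of 3 tested being higher, summed to 4.68, 2.62 and 2.52 FPKM in vehicle samples and 146, 27.4 and 12.7 FPKM in DS-5272 samples, with Hba-a1 giving 84.2, 14.7 and 7.07 FPKM of the DS-5272 sums. DS-5272 replicate 1 held the middle level of its group for Dnmt1, Uhrf1, Dnmt3a, Dnmt3b and Ezh2, the lowest for Ezh1, Eed and Suz12, and the highest for Tet2 and Tet3. With that sample left out, 5 of the 10 genes were still called lower and 2 higher. NK cell markers summed to 0.764, 0.528 and 0.966 FPKM in vehicle samples and 3.67, 1.94 and 1.57 FPKM in DS-5272 samples, and T cell markers to 0.430, 0.343 and 0.405 FPKM and 3.54, 0.705 and 1.35 FPKM, so both sums were higher in every DS-5272 sample. In DS-5272 replicate 1 the T cell sum was nearly all Cd4, at 3.28 FPKM, and the NK marker Klrb1c was at 0.183, 0.173 and 0.188 FPKM in vehicle samples and 0.188, 0.147 and 0.146 FPKM in DS-5272 samples. B cell markers summed to at most 5.36 FPKM, led by Cd79b. Of these 3 lists only 1 gene passed the filter, and it was not called. The defining markers Ncr1, Cd3d and Cd3e were at most 0.354, 0.341 and 0.313 FPKM. Ncr1 had 0.033, 0 and 0.019 FPKM in vehicle samples and 0.354, 0.101 and 0.122 FPKM in DS-5272 samples. Gzma, Eomes, Cd3e, Cd4, Cd8a and Cd8b1 were likewise higher in every DS-5272 sample than in any vehicle sample. Klrb1c, Klrk1, Prf1, Cd3d and Cd3g overlapped between groups. Megakaryocyte markers summed to 1.82, 1.68 and 2.079 FPKM in vehicle samples and 6.95, 5.10 and 4.32 FPKM in DS-5272 samples, with 0 of 2 tested genes called by limma and 1 at an unadjusted p under 0.05. The stroma and endothelium list summed to 60.0, 31.1 and 29.0 FPKM in vehicle samples and 112, 73.4 and 81.1 FPKM in DS-5272 samples. Nearly all of it came from Pecam1, the 1 gene of that list called higher. Cdh5 and Kdr were under 0.1 FPKM in all samples. Kdr, Col1a2, Cxcl12 and Lepr, all below the filter, were higher in every DS-5272 sample than in any vehicle sample. Col1a1 (log2 0.81, limma adjusted p = 0.084) and Cdh5 overlapped between groups. The paper describes MLL-AF9 vectors with GFP or with puro, and its text does not state which one these samples carried. The leukemia cells were sorted before RNA was taken, which is meant to leave other cell types out. The gate used for these samples was not examined here. The part of these cell types in the levels of the 10 genes was not tested.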

How the data were processed

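The authors trimmed paired reads with cutadapt 1.8.1, aligned them to GRCm38 with TopHat2 2.1.1 and made gene FPKM with Cufflinks 2.2.1. The deposited table holds FPKM and no counts, in 26632 rows. Rows that share a name were summed, and 433 rows that join several genes were left as they stand. Depth was read from the steps between low values: relative to vehicle replicate 1 it was 0.808 and 0.885 in vehicle replicates 2 and 3, and 0.746, 0.652 and 0.539 in DS-5272 replicates 1 to 3, so low levels are least precise in DS-5272 replicate 3. Genes averaging 1 FPKM or more were fitted as log2(FPKM + 1) with limma 3.58.1 in R 4.3.3, with a mean-variance trend and no covariate, two-sided, with Benjamini-Hochberg adjustment over all 11130 genes and a threshold of 0.05. The fit was checked on simulated data. Ratios within a sample were compared by two-sided exact permutation, and tables and figures used Python 3.11.15, numpy 2.4.6, pandas 2.3.3 and matplotlib 3.10.9.

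The members and lists were chosen with earlier results of these data known. Besides the 10 genes, the text names from each list of partners, H3K9, S phase, germline and imprinted genes the 3 largest falls and 3 largest rises past the threshold and the gene with the highest mean FPKM, together with Pcna and Mki67. For Dnmt1, Ezh2 and Ezh1 it names the 3 genes with the highest Pearson r of log2(FPKM + 1) over the 6 samples, among genes averaging 5 FPKM or more. Other genes were named after their values were seen. Some genes of the lists are not reported here. Gene positions are from GENCODE vM21. Same-numbered samples of both groups had deviations from their group means that correlated at 0.66, 0.21 and 0.43. Differently numbered samples ran from −0.58 to 0.34, and vehicle replicate 2 with DS-5272 replicate 3 (0.34) exceeded 1 of the same-numbered values. The numbers were treated as a pairing in the replicate block only. The fit was repeated with the replicate block, with each sample left out, with FPKM brought to a common total (TPM) or a common upper quartile, without the filter, and with a pseudocount of 0.1.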

Additional observations from a re-analysis of the deposited data

How the results depend on the processing

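The 7 calls among the 10 genes kept their direction under all alternatives run, and Dnmt1, Dnmt3b, Ezh2 and Suz12 also kept their side of the threshold. Over 110 values for the 10 genes, 100 kept direction and side, 4 lost the call, 1 gained it and 5 changed sign. Leaving out 1 sample at a time gave 1389 to 2432 genes called lower and 1623 to 2934 called higher, 1 to 2 of the 10 genes higher and 3 to 8 partner genes higher. A common total (TPM) gave 1713 genes higher and 1 of the 10 genes higher. It moved the median log2 fold change of all genes from 0.04 to −0.19, and a common upper quartile moved it to −0.08. The share of higher genes among all calls was 52.4%, 32.5% with the common total and 41.3% with the common upper quartile, so which direction held more calls depended on the scaling. Sign changes concerned uncalled genes: Tet2 (log2 −0.12) and Tet3 (log2 −0.12) with the common total, Tet2 (log2 −0.0060) and Tet3 (log2 −0.0023) with the upper quartile, and Eed (log2 −0.13 to 0.062) over the fits that left out 1 sample. Relative to the median of all genes, Tet2 was 0.07 and Tet3 0.08 above it with the common total. Of the 11 ratios, 10 had all same-numbered differences in 1 direction in the replicate block. Leaving out a sample leaves fewer samples for the fit. Otherwise the cause was not tested.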
